A study of Mus musculus with 21 samples.

Results

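The 10 genes of fat cell formation and lipid storage described here, Plin2, Plin4, Lpl, Fabp4, Fabp5, Cd36, Cebpa, Cebpb, Cebpd and Dlk1, were followed across 21 RNA libraries of cultured mouse mammary fibroblasts. They were picked by gene name, and all 10 had a row among the 45706 genes of the count table. The libraries form 7 groups of 3. Fibroblasts of the line NF1 (normal fibroblasts, NF) came from healthy mammary glands of FVB/n mice. Fibroblasts of the line CAF1 (cancer-associated fibroblasts, CAF) came from carcinomas arising in the mammary glands of the MMTV-PyMT model, where a viral promoter drives a viral oncogene in the epithelium. All cells, controls included, were transfected with 100 nM siRNA in medium with 10% serum, and RNA was taken 48 h later. NF with control siRNA received vehicle or 5 ng/mL TGFb1 for 43 h, NF with siRNA pools against Hsp90aa1 or Hsp90ab1 received TGFb1, and CAF with control, Hsp90aa1 or Hsp90ab1 siRNA received vehicle. Hsp90aa1 and Hsp90ab1 encode the cytosolic chaperones HSP90 alpha and HSP90 beta. Each origin is represented by 1 line, NF carried the knockdowns with TGFb1 only, and the labels give batch numbers 1 to 3 without saying whether these are separate cultures, so a p-value speaks only to how far these libraries scatter, which may be technical.

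Fat cell formation starts with the early transcription factors C/EBP beta (Cebpb) and C/EBP delta (Cebpd), which switch on Pparg and C/EBP alpha (Cebpa), and this pair then maintains the fat cell programme. Dlk1 (Pref-1) is a membrane protein of preadipocytes that holds the process back. Lipoprotein lipase (Lpl) releases fatty acids from circulating triglyceride, CD36 takes them up, and FABP4 and FABP5 carry them inside the cell, while perilipins 2 and 4 (Plin2, Plin4) coat lipid droplets. Fibroblasts of the mammary stroma lie next to fat cells and include their precursors, and TGFb1 is known to hold precursors back from becoming fat cells and to turn fibroblasts into contractile, matrix-producing myofibroblasts.

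The 250 bases before the transcription start are shown for 4 members that took different courses with TGFb1: Plin2 and Cebpa rose, Plin4 fell, and Dlk1 did not pass the test. The sequences are from RefSeq for GRCm38.p6, where 6 of the 10 members were matched (Plin2, Plin4, Cd36, Cebpa, Cebpb and Dlk1). They lie at chr4:86670060-86670309 on the minus strand for Plin2, chr7:35119043-35119292 on the plus strand for Cebpa, chr17:56109783-56110032 on the minus strand for Plin4 and chr12:109452573-109452822 on the plus strand for Dlk1. All are written 5′ to 3′ on the gene's strand, and capitals mark matches on either strand to AGGTCA, the core of the element bound by PPARG with RXR, or to CAGAC, the core bound by the SMAD proteins of TGFb signalling.
Plin2: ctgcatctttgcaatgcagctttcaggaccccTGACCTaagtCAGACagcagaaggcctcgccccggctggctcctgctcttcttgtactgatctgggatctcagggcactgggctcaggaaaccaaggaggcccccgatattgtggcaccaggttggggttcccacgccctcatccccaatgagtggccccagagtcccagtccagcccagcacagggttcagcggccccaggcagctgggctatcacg
Cebpa: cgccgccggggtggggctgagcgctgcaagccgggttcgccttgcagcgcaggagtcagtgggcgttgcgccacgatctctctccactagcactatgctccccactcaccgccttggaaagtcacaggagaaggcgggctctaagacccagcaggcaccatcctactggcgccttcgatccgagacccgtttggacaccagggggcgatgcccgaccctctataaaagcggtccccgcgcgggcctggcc
Plin4: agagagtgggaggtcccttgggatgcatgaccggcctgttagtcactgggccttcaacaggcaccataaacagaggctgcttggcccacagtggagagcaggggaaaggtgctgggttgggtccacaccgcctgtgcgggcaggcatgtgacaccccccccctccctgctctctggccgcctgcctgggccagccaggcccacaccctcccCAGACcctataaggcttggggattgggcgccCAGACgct
Dlk1: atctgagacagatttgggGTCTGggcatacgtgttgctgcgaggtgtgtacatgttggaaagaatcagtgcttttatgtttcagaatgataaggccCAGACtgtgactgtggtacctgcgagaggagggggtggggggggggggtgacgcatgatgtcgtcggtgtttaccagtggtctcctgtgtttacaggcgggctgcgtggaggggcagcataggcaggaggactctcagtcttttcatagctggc
Plin2 held AGGTCA once, read as TGACCT on the strand shown, 4 bases from 1 copy of CAGAC. Plin4 held CAGAC at 2 places close to its start, Dlk1 also at 2 places, and Cebpa at none. The Plin4 gene span given below comes from another annotation and reaches to 56109803. The last bases of the Plin4 window, with the CAGAC nearest the start, therefore lie inside that span. Over 32851 promoter windows of the same length AGGTCA occurred in 14.0% and CAGAC in 42.2%, so these matches are common letters and describe the windows only. The direct repeat of AGGTCA with 1 base between the copies (0.0335% of windows), the C/EBP letters TTGCNNAA (9.56%) and the E-box CACGTG (6.02%), searched on both strands, were found in none of the 6 matched members.

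Each siRNA pool lowered its target. With its own pool Hsp90aa1 kept 12.4% of its control mean in NF and 10.0% in CAF, and Hsp90ab1 kept 13.3% and 9.96%. The Hsp90ab1 pool also left Hsp90aa1 at 48.1% of its mean in NF control cells (adjusted p = 0.0722) and 47.6% in CAF (adjusted p = 0.123), below the range of the control libraries in both. Libraries held between 35087162 and 70421549 estimated counts. Of 9 fibroblast marker genes all were tested, and their summed level differed between groups, at 7785 to 10510.4 CPM in NF with vehicle, 17170.3 to 23666 CPM in the 3 NF groups with TGFb1, and 40086 to 61914 CPM in CAF. The fat cell markers Adipoq, Plin1, Cidec, Lep and Retn summed to at most 0.831 CPM in any library, and Retn alone passed the filter on low counts. In NF their sum lay at 0.591 to 0.831 CPM with vehicle and 0.0909 to 0.222 CPM with TGFb1. With TGFb1 and a knockdown it lay at 0.519 to 0.680 CPM for siHsp90aa1 and 0 to 0.179 CPM for siHsp90ab1. In CAF with vehicle it lay at 0.0441 to 0.0865 CPM. Retn, a hormone gene of mouse fat cells, had 36, 36 and 31 counts in NF with vehicle, 8, 5 and 3 with TGFb1 (-2.49 ± 0.62, adjusted p = 0.00507), 33, 28 and 25 with siHsp90aa1 (2.39 ± 0.62 against TGFb1, adjusted p = 0.00794) and 3, 3 and 1 in CAF with vehicle (-3.78 ± 0.70 against NF, adjusted p = 0.000132). Of the 5 markers 3 were at 0 in all libraries of NF with vehicle and 4 in those of NF with siHsp90aa1. From a wider list of 15 mature fat cell genes, Rarres2 and Rbp4 were higher in CAF, where Retn was lower. Rbp4 fell with siHsp90aa1 in NF, where Retn rose, and the lipase gene Lipe fell with TGFb1, as Retn did. Epithelial markers summed to 0.400 to 1.62 CPM in NF and 5.02 to 22.2 CPM in CAF, and endothelial markers to 2.49 to 4.41 CPM in NF and 8.48 to 18.2 CPM in CAF. The part of any of these cell types in the differences given below was not tested. In bulk RNA, fewer cells of a type and less RNA per cell cannot be told apart.

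In control cells the members covered a range from near absence to high abundance. On the TPM scale, which is per transcript length, Dlk1 was the most abundant member in NF with vehicle (mean 929 TPM), followed by Cebpb (537), Lpl (152), Fabp5 (102), Cebpd (75.0) and Plin2 (50.1). Plin4 (2.13 TPM), Fabp4 (1.53) and Cebpa (1.16) were far lower. The preadipocyte gene and the early C/EBP factor therefore stood above the late factor Cebpa by more than the spread between libraries, since all 3 NF values of Cebpa lay between 0.555 and 1.59 TPM and those of Cebpb between 421 and 637 TPM. In CAF with vehicle Lpl (571 TPM) ranked above Cebpb (408 TPM), and Cebpa (0.407 TPM) was again lowest. Cd36 (chr5:17781690-17888801, minus strand), the fatty acid receptor, had 4 counts in all 21 libraries and 0 in 18 of them, where a count of 0 allows up to 3 counts, or 0.0441 to 0.0865 CPM depending on depth, for counting error only. It failed the filter and was not tested.

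**Figure D1:**
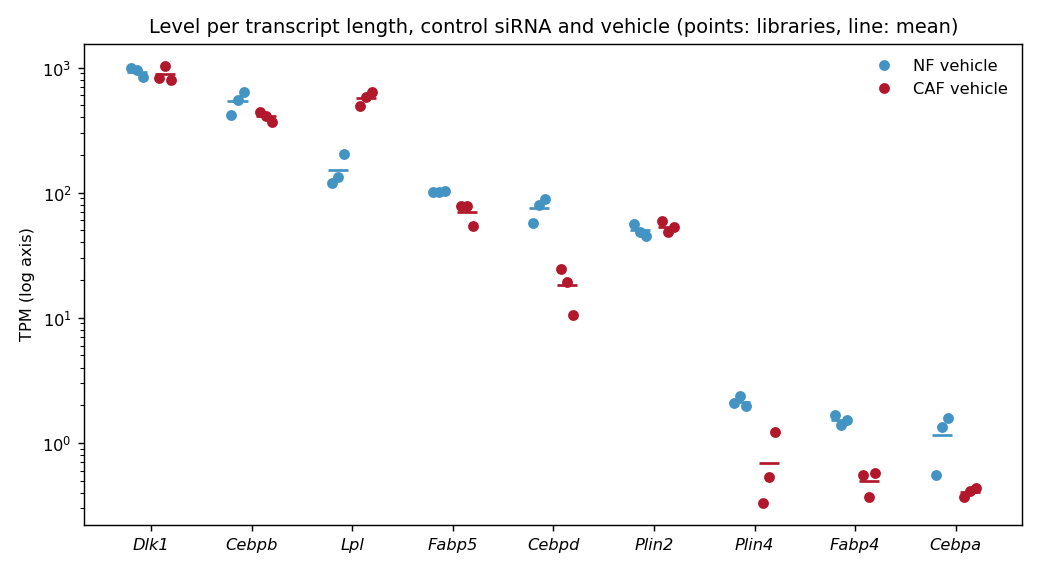
TPM on a log axis for 9 members in NF (blue) and CAF (red) with control siRNA and vehicle, each point 1 library and each line the mean of 3, ordered by the NF mean. Lpl stands at 152 TPM in NF and 571 TPM in CAF, while Plin4, Fabp4 and Cebpa lie near or below 2 TPM in both.

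Of the 10 members 9 were tested, in edgeR's quasi-likelihood test with Benjamini-Hochberg adjustment over 15230 genes, and a gene is said to have risen or fallen when its adjusted p is under 0.05. All fold changes are log2 values of the fit with their standard error, and levels are CPM (counts scaled to the library total) normalised by TMM. Between CAF and NF with vehicle 1 member was higher in CAF and 6 were lower. Of all tested genes 61.6% differed, 31.6% higher and 30% lower, so most genes, members or not, were called there. The median log2 difference of the 9 was -0.63, beside 0.00 over all genes. With TGFb1 in NF 2 members rose and 4 fell, where 29.0% of all genes were called (14.6% higher, 14.4% lower). With siHsp90aa1 in NF under TGFb1 3 rose and 3 fell, where 28.3% of all genes were called (14.8% higher, 13.5% lower), and without 1 library at a time 3 to 4 members were called, with the libraries given below for each member. With siHsp90ab1 in NF 1 rose, where 2.69% of all genes were called (1.06% higher). In CAF siHsp90aa1 raised 1 and lowered 1, where 25.4% of all genes were called (12.5% higher, 12.9% lower). In CAF siHsp90ab1 moved none, where 0.900% of all genes were called, with 0 members at an unadjusted p under 0.05 and 0 called by DESeq2. The median log2 difference of the 9 members was -0.12 for TGFb1, -0.14 for siHsp90aa1 in NF, -0.15 for siHsp90ab1 in NF, -0.24 for siHsp90aa1 in CAF and -0.14 for siHsp90ab1 in CAF, beside -0.03 to 0.03 over all genes in these comparisons. The comparison of CAF with NF and that of TGFb1 share the NF vehicle libraries, and that of TGFb1 and those of the NF knockdowns share the TGFb1 control libraries, so their values are only set side by side.

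**Figure D2:**
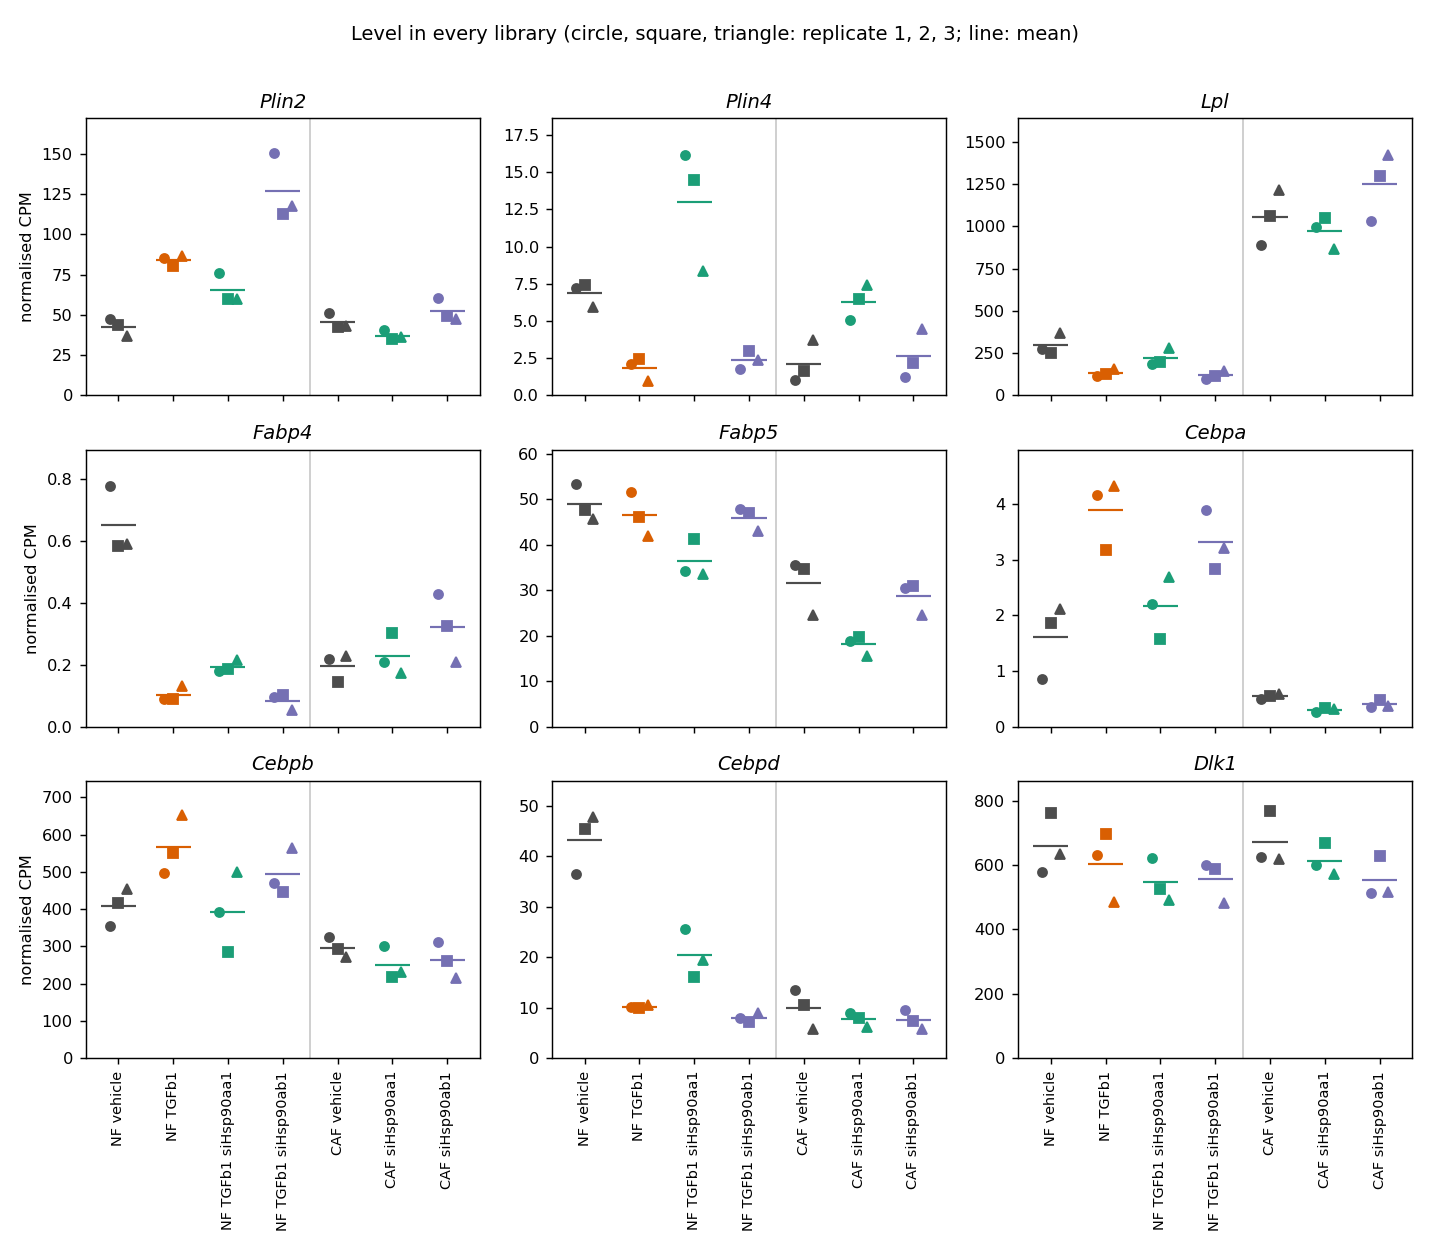
Normalised CPM of the 9 tested members in every library, on linear axes from 0, by group, with the 3 batches as circle, square and triangle and the group mean as a line. Lpl sits at 869 CPM or more in all 9 CAF libraries and at 368 CPM or less in all 12 NF libraries, and Cebpd is highest in the 3 NF vehicle libraries.

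The 2 droplet coat genes took opposite courses in NF. Plin2 (chr4:86648386-86670060, minus strand in GRCm38) codes for the perilipin found on droplets of most cell types, and Plin4 (chr17:56100591-56109803, minus strand) for one found on small, newly formed droplets in fat cells. Plin2 measured 47.4, 43.8 and 37.0 CPM in NF with vehicle and 85.7, 80.2 and 86.9 CPM with TGFb1, a rise of 0.98 ± 0.13 (adjusted p = 2.04e-05) without overlap. With siHsp90ab1 it stood at 151, 113 and 118 CPM, above every control library with TGFb1 (0.59 ± 0.13, adjusted p = 0.0178), and this was its highest level in the series. With siHsp90aa1 it stood at 76.0, 59.6 and 60.2 CPM, below them (-0.37 ± 0.13, adjusted p = 0.0424). Between the 2 knockdowns in NF the difference was -0.96 ± 0.13 (adjusted p = 2.64e-05), with -0.99, -0.92 and -0.97 in the 3 batches. The rise with siHsp90ab1 was lost without replicate 1 of the knockdown (0.45, adjusted p = 0.138) or without replicate 1 (0.0759) or 2 (0.0952) of the TGFb1 control. The fall with siHsp90aa1 was lost with upper-quartile factors (0.0597), without any 1 of the 3 TGFb1 controls (adjusted p 0.0581 to 0.105) or without replicate 2 (0.149) or 3 (0.135) of the knockdown.

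In CAF with vehicle Plin2 lay at 51.2, 42.6 and 43.1 CPM, overlapping NF with vehicle (0.10 ± 0.13, 95% interval -0.18 to 0.37). With siHsp90aa1 it lay at 40.8, 34.8 and 36.0 CPM, below the 3 controls but not called (-0.29 ± 0.13, adjusted p = 0.113, or 0.00635 with the batch as a block), and with siHsp90ab1 at 60.7, 49.1 and 47.8 CPM. The knockdowns again differed from each other (-0.50 ± 0.13, adjusted p = 0.0100, or 0.0675 without replicate 1 of siHsp90ab1). In order of means, Plin2 was highest in NF with siHsp90ab1, then NF with TGFb1, then NF with siHsp90aa1, each separated from the next group above by a gap, while the ranges of the NF siHsp90aa1, CAF and NF vehicle groups overlapped from 1 neighbour to the next.

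Plin4 measured 7.23, 7.41 and 5.97 CPM in NF with vehicle and 2.09, 2.47 and 0.994 CPM with TGFb1, a fall of 1.87 ± 0.46 on the log2 scale (adjusted p = 0.00448). With siHsp90aa1 under TGFb1 it reached 16.2, 14.4 and 8.34 CPM, above every other library of the series. That was a rise of 2.79 ± 0.46 over the TGFb1 control (adjusted p = 0.000283), the largest of any member in any of the 6 single comparisons, and 2.95, 2.55 and 3.07 in the 3 batches. With siHsp90ab1 it lay at 1.78, 2.98 and 2.41 CPM, overlapping the control, with replicate 2 above its highest library (0.35 ± 0.46, adjusted p = 0.852). Set against NF with vehicle, NF with siHsp90aa1 and TGFb1 did not overlap and were not called (0.92 ± 0.43, adjusted p = 0.113), although they were when only those groups were fitted (0.0273) and in limma on log2 TPM (0.0328).

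In CAF with vehicle Plin4 was at 1.01, 1.61 and 3.71 CPM, lower than in NF (-1.70 ± 0.45, adjusted p = 0.00317). With siHsp90aa1 it stood at 5.04, 6.49 and 7.40 CPM, a rise of 1.58 ± 0.45 (adjusted p = 0.0157), and with siHsp90ab1 at 1.21, 2.20 and 4.46 CPM. The rise was not called without replicate 1 (adjusted p = 0.0841) or 2 (0.0723) of the CAF control or replicate 3 of the knockdown (0.0574), though all 3 knockdown libraries were above all 3 controls. Plin4 also differed between the knockdowns in CAF (1.26 ± 0.45, adjusted p = 0.0453), a call that ended with upper-quartile factors (0.0509), when only those groups were fitted (0.0734), and without any 1 of replicates 1 (0.0505), 2 (0.0918) and 3 (0.136) of siHsp90aa1 or replicates 1 (0.189) and 2 (0.148) of siHsp90ab1. The difference between the Plin4 responses to siHsp90aa1 in CAF and NF was -1.22 ± 0.63 (95% interval -2.54 to 0.11) and was not called. Per length Plin4 stayed low throughout, at most 4.99 TPM. Its exons span 5777 bases, of which 17 lie in Hdgfl2 on the other strand.

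Lpl (chr8:68880491-68907448, plus strand), the secreted lipase, was the only member called higher in CAF than in NF. It measured 274, 251 and 368 CPM in NF and 892, 1059 and 1212 CPM in CAF with vehicle, a 3.54-fold higher mean (adjusted p = 2.66e-07), with log2 differences of 1.70, 2.08 and 1.72 in the 3 batches. Within NF, TGFb1 lowered Lpl to 112, 129.6 and 157 CPM (-1.16 ± 0.19, adjusted p = 0.000185). With siHsp90aa1 it was at 184, 199 and 278 CPM, above all 3 controls (0.73 ± 0.19, adjusted p = 0.00884), and with siHsp90ab1 at 96.8, 116 and 147 CPM, overlapping them (-0.15 ± 0.19). The rise was not called without replicate 1 of the TGFb1 control (adjusted p = 0.0532) or replicate 3 of siHsp90aa1 (0.0593). NF with siHsp90aa1 and TGFb1 kept 74.0% of the vehicle mean of Lpl (-0.43 ± 0.19, adjusted p = 0.0957, 0.00986 with the batch as a block, or 0.0250 without replicate 3 of the knockdown), and NF with siHsp90ab1 and TGFb1 kept 40.2% (adjusted p = 3.42e-05).

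In CAF Lpl did not pass the test for either knockdown, at 996, 1047 and 869 CPM with siHsp90aa1 (-0.12 ± 0.19) and 1029, 1295 and 1423 CPM with siHsp90ab1 (0.24 ± 0.19). The siHsp90aa1 responses of CAF and NF differed by -0.85 ± 0.27 (adjusted p = 0.0773, called at 0.00653 with the batch as a block and at 0.0269 in DESeq2). Because NF received TGFb1 and CAF vehicle, origin and cytokine cannot be told apart in that difference.

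The fatty acid carriers fell into a barely detected and a well-measured gene. Fabp4 (chr3:10204088-10208576, minus strand), the carrier typical of fat cells, had 3 to 47 counts per library. It measured 0.778, 0.584 and 0.591 CPM in NF with vehicle and 0.0888, 0.0909 and 0.131 CPM with TGFb1 (-2.65 ± 0.34, adjusted p = 1.42e-05), that is 104 counts over 3 libraries against 14. Every NF vehicle library stood above each of the other 18. In CAF it was at 0.220, 0.144 and 0.229 CPM (-1.68 ± 0.31 against NF, adjusted p = 0.000136). With siHsp90aa1 in NF it lay at 0.181, 0.185 and 0.217 CPM, above the 3 TGFb1 controls yet not called (0.91 ± 0.38, adjusted p = 0.118), and 29.9% of the vehicle mean (adjusted p = 0.000488). The Fabp4 difference between the knockdowns in NF (1.19 ± 0.39, adjusted p = 0.0367) was not called in DESeq2 (0.102), without the count filter (0.0819), or without any 1 of 5 of the 6 libraries (0.0618 to 0.162), the exception being replicate 2 of siHsp90ab1.

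Fabp5 (chr3:10012548-10016607, plus strand), the carrier of many other cell types, stood at 53.4, 47.7 and 45.6 CPM in NF with vehicle and 51.6, 46.1 and 41.9 CPM with TGFb1, a difference of -0.07 ± 0.14 (95% interval -0.36 to 0.21). It was lower in CAF, at 35.6, 34.7 and 24.6 CPM (-0.63 ± 0.14, adjusted p = 0.000614). In CAF siHsp90aa1 lowered it to 18.9, 19.8 and 15.5 CPM (-0.80 ± 0.14, adjusted p = 0.000417), the lowest 3 libraries of the series, while siHsp90ab1 left 30.5, 30.9 and 24.6 CPM (-0.14 ± 0.14). The 2 knockdowns differed in CAF by -0.66 ± 0.14 (adjusted p = 0.00209). In NF under TGFb1 siHsp90aa1 gave 34.3, 41.3 and 33.6 CPM, below the controls but not called (-0.35 ± 0.14, adjusted p = 0.0603), and siHsp90ab1 gave 47.9, 47.0 and 43.0 CPM. That difference was called with the batch as a block (0.00428), when only those groups were fitted (0.0360), in DESeq2 (0.0496), in limma on log2 TPM (0.0476), and without replicate 3 of the TGFb1 control (0.0497) or replicate 2 of the knockdown (0.0401). With the block Fabp5 was also lower with siHsp90aa1 than with siHsp90ab1 in NF (-0.34, adjusted p = 0.00459, against 0.0651 without it, 0.0193 with only those groups and 0.0265 in limma). Its siHsp90aa1 responses in CAF and NF differed with the block (-0.45, adjusted p = 0.0254, against 0.200) and without replicate 3 of the CAF control (0.0420). Against NF with vehicle it fell by 0.43 ± 0.14 with siHsp90aa1 and TGFb1 (adjusted p = 0.0239), lost without replicate 1 of the vehicle group (0.0926) or replicate 1 (0.0865) or 3 (0.0801) of the knockdown. Its estimated counts were not whole in 21 of 21 libraries, nor were those of Dlk1 in 13, Plin2 in 10 and Lpl in 7. Where the fractional reads of these 4 genes came from was not tested, and their levels carry that uncertainty.

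**Figure D3:**
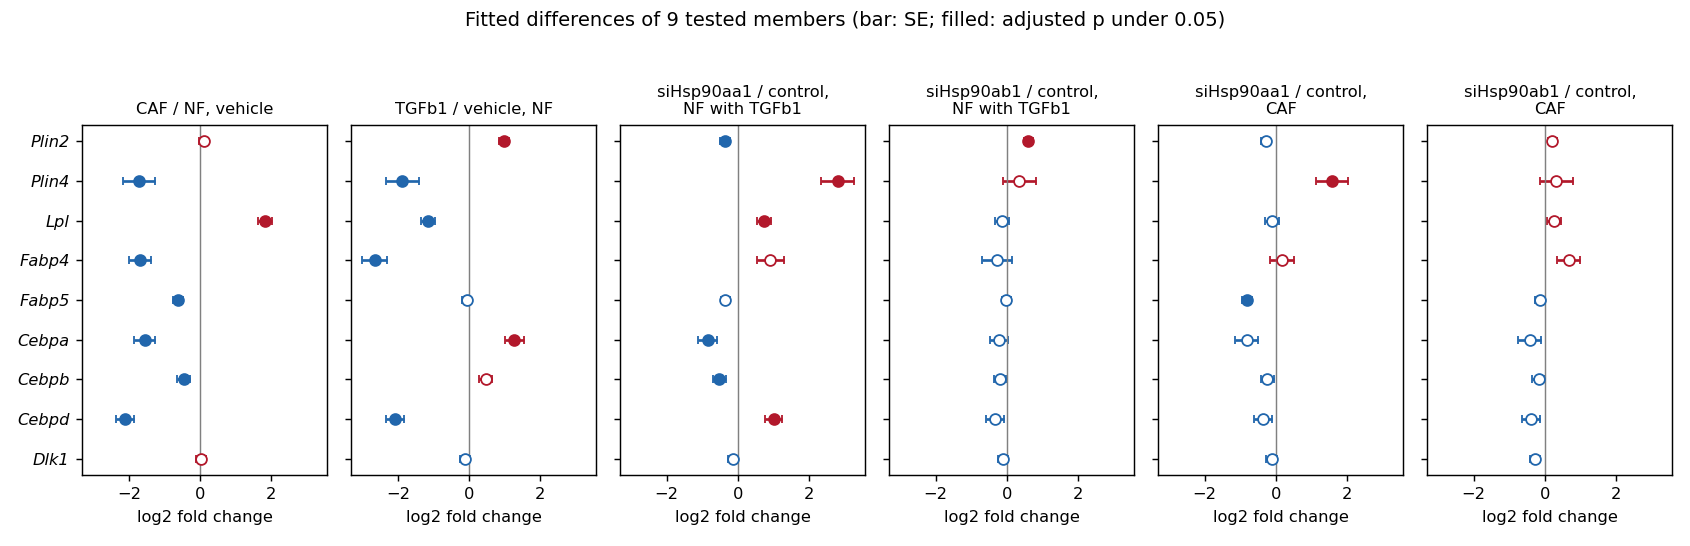
Fitted log2 fold changes of the 9 tested members with their SE in 6 comparisons, red for higher and blue for lower, filled where the adjusted p is under 0.05. Plin4 stands at -1.87 with TGFb1 and at 2.79 with siHsp90aa1 in NF, 2 comparisons that share the TGFb1 control libraries, and siHsp90ab1 in CAF shows no filled point.

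The C/EBP factors did not move together. Cebpd (chr16:15887286-15891031, plus strand), an early factor, measured 36.4, 45.3 and 47.8 CPM in NF with vehicle and 10.1, 9.86 and 10.6 CPM with TGFb1 (-2.08 ± 0.25, adjusted p = 4.93e-06). With siHsp90aa1 under TGFb1 it stood at 25.6, 16.1 and 19.4 CPM, a rise of 1.00 ± 0.24 (adjusted p = 0.00503) that left it at 47.1% of the vehicle mean (adjusted p = 0.00219). With siHsp90ab1 it stood at 8.01, 7.22 and 8.95 CPM, below all 3 controls but not called (-0.33 ± 0.24, adjusted p = 0.665). Between the knockdowns in NF the difference was 1.33 ± 0.24 (adjusted p = 0.000413). In CAF Cebpd was at 13.5, 10.5 and 5.88 CPM with vehicle (-2.11 ± 0.25 against NF, adjusted p = 7e-07), at 8.95, 7.94 and 6.25 CPM with siHsp90aa1 (-0.37 ± 0.24, adjusted p = 0.294, or 0.0292 without replicate 3 of the CAF control) and at 9.63, 7.43 and 5.77 CPM with siHsp90ab1.

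The siHsp90aa1 response of Cebpd differed between CAF and NF by -1.37 ± 0.34 (adjusted p = 0.0252), the only member called in that comparison, where 5.46% of all genes were (2.44% higher, 3.02% lower). The call was lost without any 1 of 8 of the 12 libraries, with adjusted p from 0.0529 to 0.0825: replicates 1, 2 and 3 of the NF TGFb1 control, replicate 1 of NF siHsp90aa1, replicates 1 and 2 of the CAF control and replicates 2 and 3 of CAF siHsp90aa1. NF received TGFb1 and CAF did not, so origin and cytokine cannot be told apart. With the siHsp90ab1 pool no member differed in response between CAF and NF (0.00657% of all genes), 1 was at an unadjusted p under 0.05, and DESeq2 called 0.

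Cebpb (chr2:167688915-167690418, plus strand), the other early factor and among the most abundant members, was at 355, 416 and 455 CPM in NF with vehicle and 498, 550.0 and 654 CPM with TGFb1. The groups did not overlap, with 0.47 ± 0.18 and an adjusted p of 0.0595, called with the batch as a block (0.0446), in DESeq2 (0.0496) and when only those groups were fitted (0.0360). With siHsp90aa1 it stood at 394, 284 and 499 CPM, overlapping the control by 1 library (-0.53 ± 0.18, adjusted p = 0.0361), a call lost when only those groups were fitted (0.0610) or without replicate 2 (0.0634) or 3 (0.143) of the TGFb1 control or replicate 1 (0.0884) or 2 (0.178) of the knockdown. With siHsp90ab1 it stood at 471, 447 and 564 CPM (-0.20 ± 0.18), and the knockdowns differed only without replicate 3 of siHsp90aa1 (adjusted p = 0.0355, against 0.173). In CAF it was at 324, 294 and 271 CPM, lower than in NF (-0.46 ± 0.18, adjusted p = 0.0351), lost in limma on log2 TPM (0.116) and without replicate 2 (0.0650) or 3 (0.105) of NF or replicate 2 (0.0678) or 3 (0.0974) of CAF. The CAF knockdown libraries overlapped that control, at 302, 218 and 231 CPM with siHsp90aa1 and 312, 261 and 216 CPM with siHsp90ab1.

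Cebpa (chr7:35119293-35121928, plus strand), the late factor, was low but measured in every library, with 13 to 201 counts. It stood at 0.861, 1.86 and 2.12 CPM in NF with vehicle and 4.15, 3.18 and 4.32 CPM with TGFb1, a rise of 1.27 ± 0.27 (adjusted p = 0.00156) opposite in sign to that of Cebpd. Replicate 1 of NF with vehicle, the lowest for Cebpa, also had the highest mitochondrial share of the series at 4.30%, and the batch differences were 2.27, 0.77 and 1.03. With siHsp90aa1 it stood at 2.21, 1.58 and 2.69 CPM (-0.85 ± 0.27, adjusted p = 0.0232), lost without replicate 1 (0.0723) or 3 (0.0724) of the TGFb1 control or replicate 1 (0.0613) or 2 (0.112) of the knockdown, and with siHsp90ab1 at 3.90, 2.83 and 3.20 CPM (-0.23 ± 0.26). In CAF it was at 0.4996, 0.548 and 0.592 CPM (-1.56 ± 0.29 against NF, adjusted p = 0.000150) and at 0.273, 0.330 and 0.326 CPM with siHsp90aa1, below the 3 controls but not called (-0.82 ± 0.33, adjusted p = 0.0733). With siHsp90ab1 it was at 0.353, 0.479 and 0.374 CPM, also below them and not called (-0.43 ± 0.32, adjusted p = 0.817). Every CAF library lay below every NF library.

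These 3 factors overlap genes on the other strand. Of the exon bases of Cebpd 562 of 3746 lie in Spidr, of Cebpb 312 of 1504 in Tmem189 and of Cebpa 51 of 2636 in Gm45091. The kit keeps strand, and the strand setting of the counting is not given in the sources used here. Spidr was lower in CAF (-1.15 ± 0.10) and with TGFb1 (-0.43 ± 0.09), as Cebpd was, and did not follow it with siHsp90aa1 (0.07 ± 0.09). Tmem189 fell with siHsp90aa1 in NF (-0.46 ± 0.10), as Cebpb did, and was higher in CAF (0.89 ± 0.10), where Cebpb was lower. Their part in the C/EBP values was not tested.

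**Figure D4:**
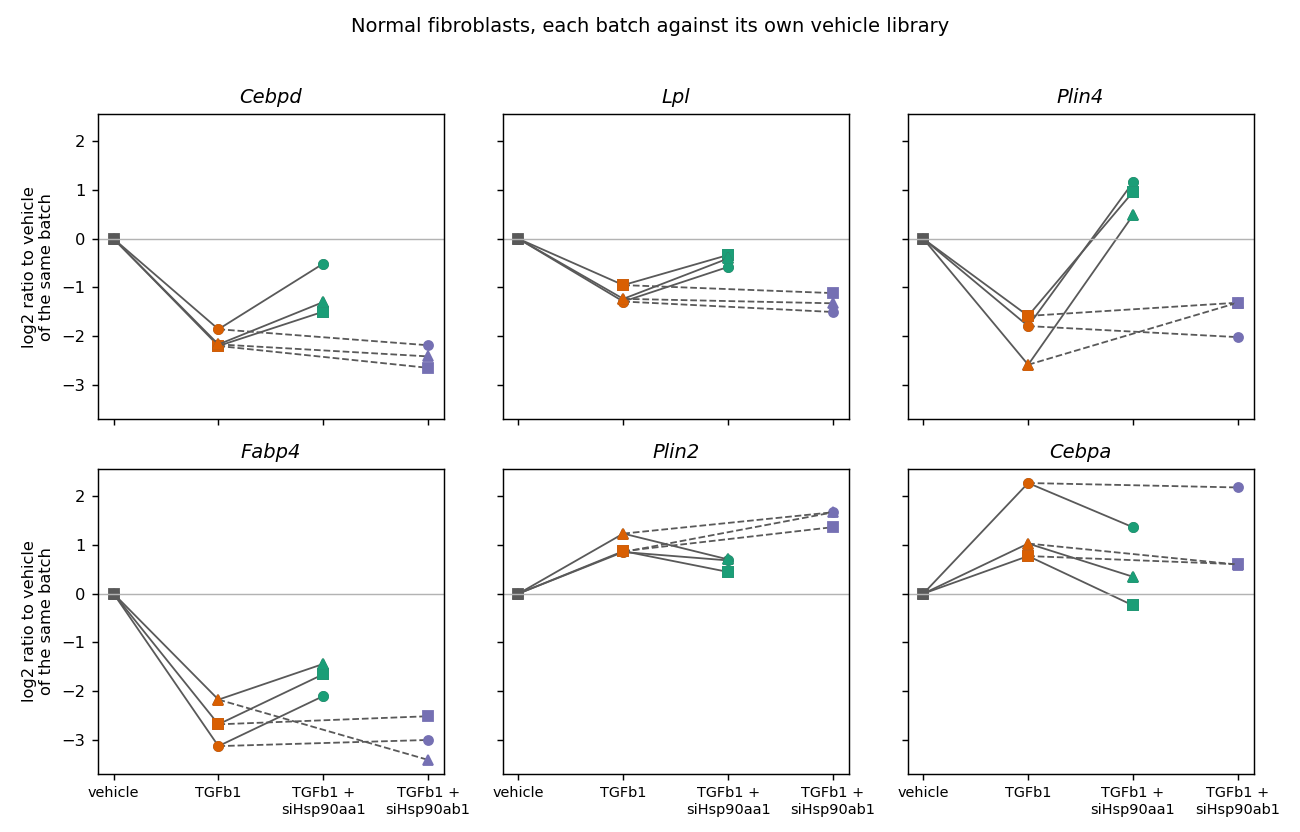
Log2 ratio of CPM to the vehicle library of the same batch in NF for 6 members, solid lines leading from TGFb1 to siHsp90aa1 and dashed lines from TGFb1 to siHsp90ab1, with 1 marker shape per batch. In all 3 batches Cebpd, Lpl, Plin4 and Fabp4 lie below vehicle with TGFb1 and nearer to it or above it with siHsp90aa1, while Plin2 and Cebpa lie above vehicle with TGFb1. The 6 drawn are the members called with TGFb1. The change with TGFb1 and the changes with the knockdowns share the TGFb1 control libraries. The rise of Fabp4 with siHsp90aa1 was not called.

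Dlk1 (chr12:109452823-109463336, plus strand), the preadipocyte inhibitor, passed the test in none of the 12 comparisons. It measured 579.7, 760.5 and 634 CPM in NF with vehicle, 630.4, 696 and 486 CPM with TGFb1, 622, 526 and 493 CPM with siHsp90aa1 and 602, 589 and 482 CPM with siHsp90ab1. In CAF it measured 626, 768 and 617 CPM with vehicle, 601, 668 and 572 CPM with siHsp90aa1 and 514, 628 and 517 CPM with siHsp90ab1. All 7 groups overlapped with their neighbours in the order of means. The 95% interval was -0.27 to 0.32 for CAF against NF and -0.42 to 0.17 for TGFb1. With the batch as a block it was lower in NF with siHsp90aa1 and TGFb1 than with vehicle (-0.26, adjusted p = 0.0493, against 0.170 without it and 0.0357 in limma).

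The knockdowns were also set against each other. In NF under TGFb1 Plin4, Lpl, Fabp4 and Cebpd were higher with siHsp90aa1 than with siHsp90ab1 and Plin2 was lower, where 34.1% of all genes were called (17.7% higher, 16.4% lower). In CAF Plin4 was higher and Plin2 and Fabp5 were lower, where 26.3% of all genes were called (13.1% higher, 13.3% lower). Set against NF with vehicle, cells with siHsp90aa1 and TGFb1 had 1 member higher (Plin2) and 3 lower (Fabp4, Fabp5 and Cebpd), where 30.1% of all genes were called (15.1% higher, 15% lower). Cells with siHsp90ab1 and TGFb1 had 2 higher (Plin2 and Cebpa) and 4 lower (Plin4, Lpl, Fabp4 and Cebpd), where 41.1% of all genes were called (19.7% higher, 21.5% lower). With the block Cebpa was also lower with siHsp90aa1 than with siHsp90ab1 in NF (-0.64, adjusted p = 0.0495, against 0.0793 without it, 0.0288 in limma and 0.0481 without replicate 3 of siHsp90aa1), and Lpl was lower in CAF (-0.33, adjusted p = 0.0461, against 0.175).

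Other genes of the same pathways came from 9 lists of 137 distinct genes, of which 101 were tested. In CAF 51 were higher and 29 lower than in NF, 79.2% called beside 61.6% of all genes. Pparg, the partner of the C/EBP factors, was at 5.36, 9.08 and 9.91 CPM in CAF and 4.65, 3.73 and 2.35 CPM in NF (1.18 ± 0.29, adjusted p = 0.00166), the other direction from Cebpa. Of 19 pro-adipogenic factors and coregulators 5 were higher and 10 lower, with Prdm16, a factor of brown and beige fat, at 3.57, 2.56 and 1.96 CPM in NF and 0.0147, 0 and 0.0573 CPM in CAF, and Ppargc1a, a coactivator of mitochondrial genes, at -4.23 ± 0.54. For the lists that follow, the share over all genes was 31.6% higher and 30% lower. Of 15 tested genes of fatty acid uptake and LPL partners 11 were higher and 4 lower, among them the fatty acid transporters Slc27a3 (2.55 ± 0.23) and Slc27a1 (-2.51 ± 0.24). Of 13 droplet and lipolysis genes 7 were higher and 2 lower, with Mgll, which cleaves monoglycerides, at 0, 0.202 and 0.114 CPM in NF and 74.1, 58.6 and 32.1 CPM in CAF. Of 11 triglyceride synthesis genes 6 were higher and 2 lower, with Lpin3 at 4.29 ± 0.18 and Gpam, the first enzyme of the route, at 2.17 ± 0.15. The summed epithelial, endothelial and fibroblast markers given above were higher in CAF as well, and their part was not tested.

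With TGFb1 in NF 17 of the 101 pathway genes rose and 20 fell (36.6%, beside 29.0% of all genes). Of the pro-adipogenic factors 2 rose and 6 fell, Klf15, a factor that promotes fat cell formation, by 2.21 ± 0.36 on the log2 scale, while Egr2 rose (2.89 ± 0.60). Pparg was at 2.53, 2.27 and 1.73 CPM, overlapping vehicle (-0.71 ± 0.30, adjusted p = 0.0831). Of 14 factors known to hold fat cell formation back 7 rose and 3 fell, with Pdgfa at 2.46 ± 0.21 and the Notch target Hes1 at 2.26 ± 0.21. Of the droplet and lipolysis genes 3 fell, the lipases Lipe (-0.78 ± 0.23) and Pnpla2 (-0.53 ± 0.14) and the coat gene Plin3, and none rose. Triglyceride synthesis genes rose in 3 cases and fell in 2, with Lpin3 at 2.73 ± 0.18. Dgat2, which makes triglyceride from diglyceride, was at 0.88 ± 0.15. Of 9 tested adipocyte progenitor surface genes 1 rose and 3 fell, with Ly6a at -2.98 ± 0.20.

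With siHsp90aa1 in NF 24 pathway genes rose and 11 fell (34.7%, beside 28.3% of all genes). Pparg rose to 5.81, 6.30 and 4.43 CPM (1.34 ± 0.30, adjusted p = 0.00279) and Klf15 to 16.7, 15.5 and 17.2 CPM (1.39 ± 0.35), 2 of the 5 pro-adipogenic factors that rose against 1 that fell. Cebpa fell in the same libraries. Plin3 was the only other droplet gene to rise (0.68 ± 0.12). Of 15 tested genes of fatty acid uptake and LPL partners 2 rose, 1 fell and 12 were not called, beside 28.3% of all genes called. Among the 3 called, Lmf1, needed for LPL to fold, rose (0.70 ± 0.15), and Angptl4, a secreted LPL inhibitor, fell (-1.23 ± 0.29). Of 16 PPAR target and fatty acid oxidation genes 6 rose and 2 fell, with the oxidation enzyme Hadhb at 0.72 ± 0.12. Angptl4 is also on this list and was 1 of the 2 that fell. Its fall was the largest called change of the list among genes at 1 CPM or more. Of 9 progenitor surface genes 3 rose and 0 fell, with Ly6a at 3.00 ± 0.20.

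In CAF siHsp90aa1 raised 20 pathway genes and lowered 7 (26.7%, beside 25.4% of all genes). Pparg rose to 10.7, 15.9 and 17.2 CPM (0.85 ± 0.28, adjusted p = 0.0322) and Klf4 by 1.28 ± 0.31, while Vldlr, a receptor that binds triglyceride-rich particles beside LPL, rose by 1.07 ± 0.28 and Angptl4 did not (0.02 ± 0.26). Agpat1, an acyltransferase of triglyceride synthesis, fell in CAF (-0.83 ± 0.12) and in NF (-0.92 ± 0.12). The siHsp90ab1 pool changed 3 pathway genes in NF (2.97%, beside 2.69% of all genes), Klf3 and Lpin3 upward and Lmf2 downward, and 1 in CAF, Lpin3 (0.66 ± 0.15). Mature fat cell genes could be tested in 4 of 15 cases only. Of these 2 were higher and 1 lower in CAF against NF, where 61.6% of all genes were called. With TGFb1 0 rose and 2 fell (29.0% of all genes called), and with siHsp90aa1 in NF 1 rose and 1 fell (28.3%).

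**Figure D5:**
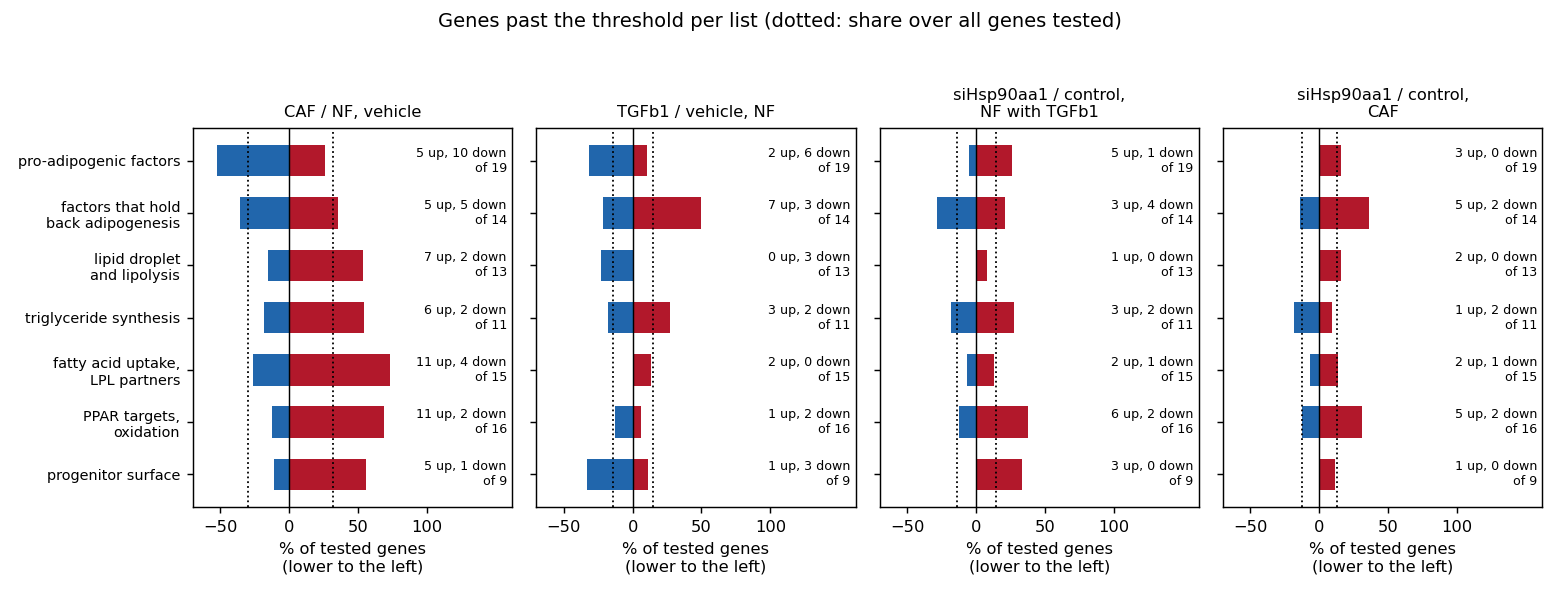
Share of tested genes of 7 lists that were higher (red, right) or lower (blue, left) in 4 comparisons, with the counts printed and the share over all genes as dotted lines. Between CAF and NF fatty acid uptake genes were higher in 11 of 15 cases and pro-adipogenic factors lower in 10 of 19.

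By the rule of the highest Pearson r of log2 CPM over the 21 libraries, which share the same groups and batches, the genes most like each member were found among all tested genes with a mean of at least 1 CPM. Lpl was matched most closely by Zfp467 and Fam189a2 (both r = 0.99), Fabp5 by Mybl2 (0.99) and then Bora and E2f8 (both 0.98), Cebpa by Mycl (0.98) and Plin2 by Sh3bp2 (0.97). The best matches were Srebf2 for Cebpb (0.94), Vma21 for Cebpd (0.92), Rps23 for Plin4 (0.92) and Magi3 for Fabp4 (0.87). Dlk1 had no close match, with Fam83d highest at 0.71. No member was among the 3 genes most like another.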

How the data were processed

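RNA-seq was measured in 21 libraries. What the authors deposited are Salmon's estimated counts for each gene. STAR and GRCm38 are also named, per the submitters' processing notes. Their versions and settings were not given in the sources used here. Of the values 10.9% were not whole, and rounding moved none by more than 0.5. The authors also deposited Salmon's TPM, used here for levels per length and in 1 alternative. In R 4.3.3, edgeR 4.0.16 fitted all libraries with TMM factors, filterByExpr (minimum count 10, total 15) and 1 coefficient per group. Of 45706 genes 15230 were tested, and each p was adjusted within its comparison. The SE is the log2 fold change over the square root of F. The alternatives were other factors, filters and subsets, DESeq2 1.42.0, limma 3.58.1 on log2(TPM + 1), the replicate block and leaving out each library. Tested on simulated data for CAF against NF, with 200 of 14914 genes changed, the fit recovered 89% of 4-fold and 73% of 2-fold changes, and 6.9% of its calls were false. For TGFb1 (14933 genes) these were 82%, 63% and 7.05%, for the siHsp90aa1 effect in CAF minus NF (14904 genes) 81%, 56% and 4.86%, and for the siHsp90ab1 effect (14934 genes) 76%, 46% and 7.58%. The simulated libraries were independent, without batches, and the 200 genes were changed in 1 group only. In the data batches were correlated and 61.6% of genes were called in CAF against NF. These rates therefore need not hold for the data.

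Equal replicate numbers pair libraries, since the labels call them a batch: over 12238 genes deviations of 46 of 63 same-number pairs correlated at r over 0.1 (mean 0.237, against -0.117 for other numbers). The deviations are from the mean of 3 libraries and sum to 0 within a group. The value for other numbers therefore follows largely from that for equal numbers and is no separate evidence. The members and lists were chosen with earlier results of these data known. Named beside the members were the HSP90 genes, Pparg, up to 2 genes per list and comparison with the largest called change and at least 1 CPM, and the 3 genes most like each member. Not every gene that this rule picks is named. Outside this rule, and chosen after their values were seen, are Plin3 with TGFb1, Hes1 in comparisons other than TGFb1, Angptl4 in CAF, Rarres2, Rbp4 and the genes that overlap members on the other strand.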

Additional observations from a re-analysis of the deposited data

Results flagged for a closer look

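For Cebpd the effect of siHsp90aa1 in CAF minus that in NF was -1.37 on the log2 scale, and this difference passed its own test, an interaction term in edgeR's fit (SE 0.34, adjusted p = 0.0252). The difference went the same way in all 3 batches, at -1.94, -1.11 and -0.78. The call was lost when any 1 of 8 libraries was left out (adjusted p 0.0529 to 0.0825 in edgeR). NF cells had been given TGFb1, which lowered Cebpd, and CAF cells had not, so the origin of the cells and the cytokine cannot be told apart.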

How the results depend on the processing

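Of 1603 member fold changes recomputed under the alternatives 1519 kept their side of the threshold, 54 lost a call and 30 gained one. In 0 cases did the sign change where either value was called. Changes of sign between uncalled values were counted as kept. Plin2 in CAF against NF, for example, ranged from -0.017 to 0.177. RLE factors changed no call of the 9 members. The stricter filter changed none of the 8 it kept, and Fabp4 did not pass it, so its calls were not tested there. With the replicate block 10 of 108 member values gained a call, given beside each result, and none lost one. For siHsp90ab1 in NF 409 genes passed, against 902 with the replicate block and 705 in DESeq2. In CAF 137 passed, against 360 with the block, 318 in DESeq2, 91 in limma and 5 when only those groups were fitted. For the siHsp90aa1 effect in CAF against NF 832 genes and 1 member passed, against 1871 and 3 with the block and 1332 and 2 in DESeq2. For siHsp90ab1 1 gene passed, against 3, 18 in DESeq2 and 16 in limma. The cause was not tested.

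Without 1 library at a time, members called ranged from 6 to 7 for CAF against NF, 3 to 4 for siHsp90aa1 in NF (6 with all libraries), 0 to 1 for siHsp90ab1 in NF, 1 to 3 for siHsp90aa1 in CAF, 4 to 6 and 1 to 3 between the knockdowns in NF and CAF, 0 to 2 for the siHsp90aa1 difference and 3 to 4 for siHsp90aa1 with TGFb1 against vehicle. Genes called ranged from 2911 to 3801 for siHsp90aa1 in NF, 157 to 329 for siHsp90ab1 in NF, 2460 to 4426 and 44 to 102 in CAF, 2478 to 4285 between the knockdowns in CAF, 453 to 951 for the siHsp90aa1 difference, 0 to 2 for siHsp90ab1, and 3329 to 4291 for TGFb1. Fewer libraries were fitted in each. Depth limits Fabp4 and Cd36 most, and Cebpa in CAF.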

Other observations

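Of 14 factors known to hold fat cell formation back 5 were higher and 5 lower in CAF than in NF, where 61.6% of all genes were called. The Wnt ligand genes Wnt10a (-4.06 ± 0.39) and Wnt6 (-3.85 ± 0.41) were lower in CAF, and Hes1 was higher, at 57.6, 52.4 and 42.8 CPM in CAF against 6.70, 8.65 and 6.54 CPM in NF (2.81 ± 0.21). With siHsp90aa1 in NF 3 rose and 4 fell, where 28.3% of all genes were called, with Klf2 at 1.95 ± 0.26 and Pdgfa at -1.82 ± 0.20. Hes1 was at -1.03 ± 0.20 there and at 0.24 ± 0.20 in CAF (adjusted p = 0.413). The 2 responses of Hes1 differed by 1.27 ± 0.28 (adjusted p = 0.0127, edgeR), where only NF had received TGFb1. Ddit3, a C/EBP family member that blocks the others, rose with siHsp90aa1 in NF (0.74 ± 0.23) and in CAF (0.90 ± 0.23), and Trib3, a pseudokinase gene switched on by stress, rose in CAF (1.18 ± 0.31).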
